A study of Arabidopsis thaliana with 12 samples.

Results

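The response of Arabidopsis seedlings to the first hour of oligomycin was read from the 6 arrays of 1 h among the 12 arrays of the series. All arrays labelled as 1 h of oligomycin (3) were set against all arrays labelled as 1 h of ethanol (3), and no measured value entered this choice. Each culture had been started from around 100 seeds of the strain Col-0, with no transgene or mutation named, in 80 ml of MS medium with 1% sucrose in shaken flasks under a day of 16 h and a night of 8 h. On day 9 all cultures went into the dark for 24 h, and they stayed dark through the treatment, so both groups were whole seedlings without light. One group then received 80 µl of an oligomycin stock to a final 10 µM and the other the same volume of ethanol. The labels call the arrays biological replicates but do not say which flask, day or scan gave each one, so the p-values measure the spread between these arrays. Many seedlings were pooled in each flask, and a transcript that became rarer in each cell cannot be told apart from a loss of the cells that make it.

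Oligomycin blocks the proton channel of the mitochondrial ATP synthase. Electron transport then slows because protons return to the matrix more slowly, and the cell makes less ATP by respiration. Plants answer disturbed mitochondria with a retrograde signal to the nucleus, through which a set of mitochondrial dysfunction genes is switched on. This set includes enzymes that let electrons bypass the proton-pumping complexes, as well as glutathione transferases and export carriers. A fall in usable energy is also sensed by the kinase SnRK1, which favours the breakdown of amino acids and other cell material.

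The deposited values were linear array intensities. Changes are differences of log2(intensity + 16), always oligomycin minus ethanol, and the added 16 makes the change of a dim gene look smaller. A probe set "rose" or "fell" where limma's two-sided test gave an adjusted p under 0.05 (Benjamini-Hochberg over 22746 tested probe sets). Values for single arrays are listed from replicate 1 to replicate 3 of each group, and the replicate numbers carry no order. With 3 arrays a group, the number of arrays limits the precision: the median SD within a group was 0.15 in ethanol and 0.12 in oligomycin on the log2 scale. Roles of genes known only by a locus code come from general knowledge of these loci, and a gene without a stated role is known here by its code or symbol alone.

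Before the results, some features of the arrays bear on all of them. Within ethanol, replicate 2 stood apart, with correlations of 0.975 and 0.979 to the others, which correlated at 0.989, while the oligomycin arrays correlated at 0.988 to 0.991. The ratio of the 3′ to the 5′ actin control, a reading of RNA quality, was 14.2, 12.7 and 12.2 in ethanol and 15, 16.4 and 16.3 in oligomycin (exact two-sided permutation p = 0.1, and 3 against 3 arrays cannot give a smaller p). Another actin control overlapped between the groups in its 3′ and its 5′ probe set, but not in its middle one. Its 3′ probe set read 2057, 1883 and 2145 in ethanol and 1850, 1968 and 1718 in oligomycin. Its 5′ probe set read 688, 542 and 603 against 567, 654 and 598, and the ratio of this pair was not computed. The GAPDH ratio, between 1.13 and 1.25, and the ubiquitin ratio, between 1.91 and 2.2, overlapped between the groups. The 25S ribosomal RNA control read 1614, 1495 and 1785 in ethanol against 1977, 1811 and 2087 in oligomycin (exact two-sided permutation p = 0.1). The part of these differences in the changes below was not tested. As a check of the tissue, RCA, the rubisco activase of green leaves, read 973 to 1250 on the 6 arrays, and PYK10, a beta-glucosidase of roots, 2579 to 3131. RCA was the 1 measured gene of 23 written as shoot and leaf markers. PYK10 was the brightest of 3 measured root markers, whose median level was 31.3. EXPA18, another of them, read 21.6 to 44.9, so the root check rests on 1 bright gene. MGH3, a histone of pollen, stayed at 8.0 or below, and the seed genes AT1G03890 and AT3G15670 at 9.4 or below.

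Within 1 h, 523 probe sets had risen and 260 had fallen, which is 2.3% and 1.14% of those tested and 3.44% in all. In all 783 the 3 oligomycin arrays lay wholly above or wholly below the 3 ethanol arrays. Groups that did not overlap were far more common than calls, with 6.85% of all probe sets higher and 12.9% lower in every oligomycin array. On this scale rises were larger than falls: their median log2 change was 0.85 against −0.53, 44 rises and 0 falls were at least 2 in size, and the extremes were 4.51 and −1.73. The intensity added before taking logs limits how far a dim probe set can fall and sets no such limit on a rise. The part of this limit in the difference was not tested. Their levels in ethanol were alike, with a median intensity of 63.9 for the probe sets that rose and 66.2 for those that fell, against 45.8 for all. Centring each array on its median left 578 rises and 171 falls, so that falls made up 22.8% of the calls in place of 33.2%.

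**Figure D1:**
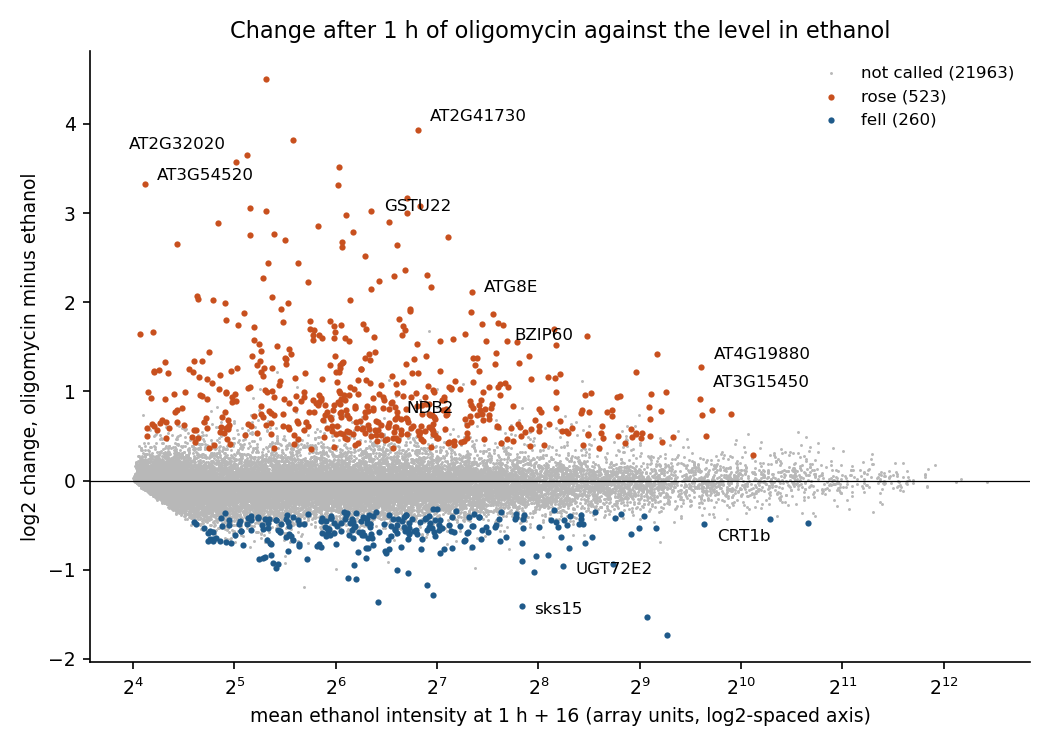
Each point is 1 of 22746 probe sets, with its mean ethanol intensity at 1 h plus 16 on a log2-spaced axis (array units) and its log2 change, oligomycin minus ethanol, on the other. The 523 rises (orange) reach 4.51, the 260 falls (blue) reach −1.73, and the brightest probe sets lie close to 0.

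The single arrays of oligomycin gave much the same picture. Over the 523 rises, the median change of each oligomycin array over the ethanol mean was 0.81, 0.84 and 0.92, and over the 260 falls it was −0.49, −0.57 and −0.55. In ethanol the arrays differed more: replicate 2 was the highest of the 3 for 51.1% of the rises, against 39.6% of all probe sets. Measured from that array the median rise was 0.77, and from replicates 1 and 3 it was 0.97 and 0.80. Without ethanol replicate 2 the calls were 558 rises and 275 falls. Leaving out any 1 of the 6 arrays kept 317 of the rises and 63 of the falls as calls throughout.

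Among probe sets with 1 gene name, 266 of 13355 genes rose (1.99%) and 147 fell (1.1%), 3.09% in all, with a median log2 change of −0.05 over all genes. These shares are to be set beside the counts of every list and family below. The largest named rise belonged to AT2G41730, which read 68.1, 134.0 and 86.3 in ethanol and 1623, 1529 and 1811 in oligomycin. All 3 treated arrays stood far above the highest control, a log2 change of 3.94 (SE 0.25, adjusted p = 1.71e-06). Its probe set, of the kind ending in _x_at, may pick up other transcripts too. AT2G32020, like acetyltransferases, went from 15.7, 17.5 and 23.5 to 358.9, 439.2 and 471.4 (log2 change 3.65, SE 0.12, adjusted p = 6.22e-09). It was dim on every ethanol array and of moderate level on every oligomycin array.

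AT5G42830, an acyltransferase-like gene, had the smallest adjusted p of all named genes. It read 43.2, 50.9 and 54.5 in ethanol and 709.6, 686.4 and 797.2 in oligomycin (log2 change 3.51, SE 0.10, adjusted p = 3.45e-09). Its arrays lay close together within each group. AT3G54520 was near the floor of the array in ethanol, at 2.8, 0.6 and 0.6, and reached 133.4, 128.8 and 226.7 with oligomycin (log2 change 3.33, SE 0.17, adjusted p = 3.61e-07). AT5G43450, like 2-oxoglutarate-dependent dioxygenases, went from 32.9, 65.0 and 48.4 to 571.9, 517.5 and 782.9 (log2 change 3.31, SE 0.19, adjusted p = 6.57e-07). Ethanol replicate 2 was its highest control and oligomycin replicate 3 its highest treated array, and the gap between the groups was wide all the same.

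AT4G28460 and AT2G23270 code for small secreted peptides. AT4G28460 read 17.0, 37.8 and 16.0 in ethanol and 243.2, 291.2 and 372.2 in oligomycin (log2 change 3.03, SE 0.23, adjusted p = 5.37e-06). AT2G23270 read 13, 18.4 and 6.1 against 138.4, 213.7 and 239.1 (log2 change 2.89, SE 0.21, adjusted p = 5.37e-06). For both, the controls lay at or near the dim end of the array. The other named genes among the 20 largest rises, besides those described with their families below, were AT5G40690 (2.90), AT4G33666 (2.79), AT3G45730 (2.76), AT1G70420 (2.75), AT1G76600 (2.73), AT1G23710 (2.70), ZCF37 (2.62), AT5G05190 (2.44), AT3G25610 (2.27) and AT1G54120 (2.24). Each of these kept its call without any single array, and AT1G80380, with a log2 change of 2.17, followed close behind (112.3, 98.9 and 109.5 in ethanol against 506.9, 544.2 and 561.9, adjusted p = 1.11e-07).

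**Figure D2:**
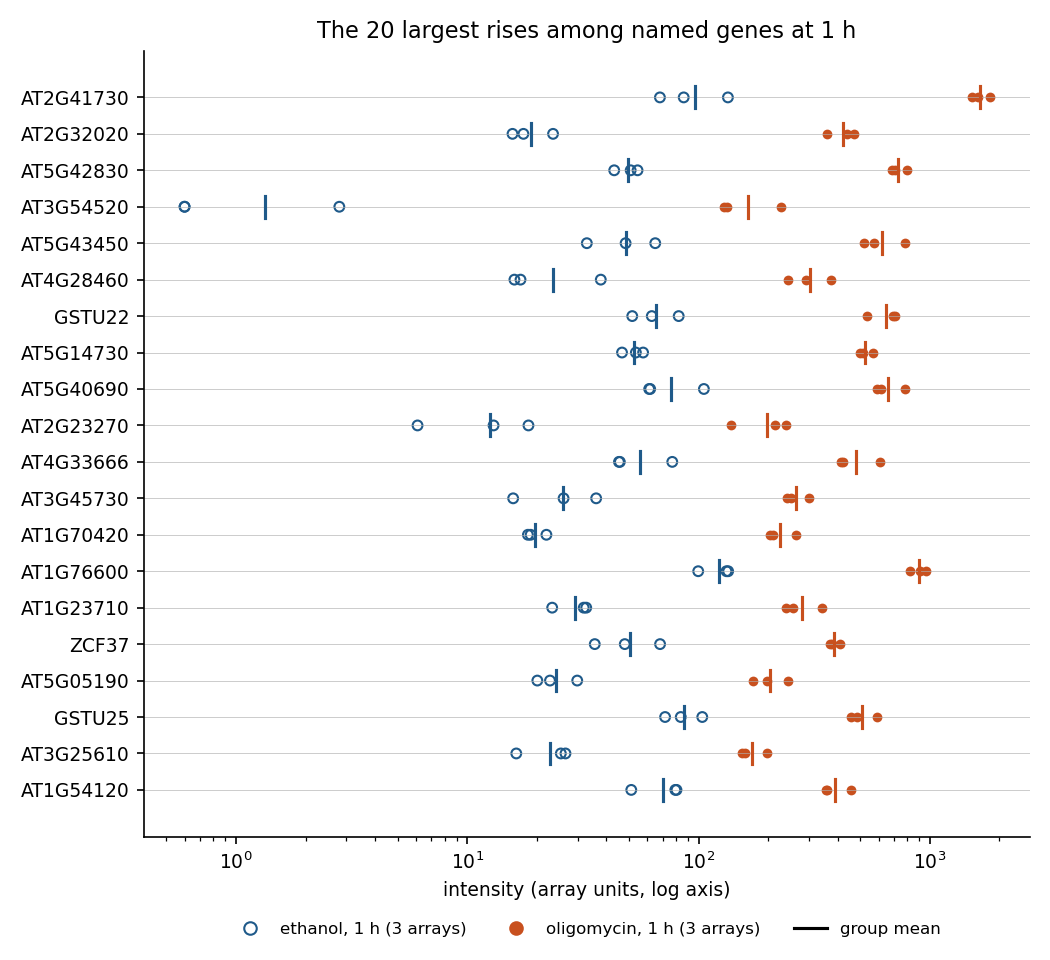
Intensity on each array (log axis, array units) for the 20 largest rises among named genes, with open blue circles for the 3 ethanol arrays, filled orange circles for the 3 oligomycin arrays and short bars for the group means. In every row the groups are separated by a gap, widest for AT3G54520, whose ethanol arrays lie at 0.6 to 2.8.

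Mitochondrial dysfunction genes rose together within the hour. Of 27 genes written in this list 12 were measured, 11 rose and 0 fell, with a median log2 change of 1.21 where the median over all genes was −0.05. This list and the lists and families below were chosen with earlier results of these data known. Their counts therefore describe these arrays and are not independent evidence of a direction. Besides AT2G41730, AT2G32020 and AT5G43450 the mitochondrial list holds AT5G14730, which read 46.7, 57.6 and 53.6 in ethanol and 515.3, 498.4 and 565.3 in oligomycin (log2 change 2.98, SE 0.11, adjusted p = 2.31e-08). The next largest was GSTU25, described with its family.

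Further members of the mitochondrial list moved by smaller steps. AT2G04050, a carrier of the MATE family that exports organic compounds, went from 32.6, 62.2 and 59.5 to 127.0, 131.5 and 200.5 (log2 change 1.33, adjusted p = 0.00429). AT2G04070, its near neighbour and relative, went from 13.9, 12.7 and 16.2 to 41.7, 39.2 and 51.2 (log2 change 0.98, adjusted p = 0.000996). Since both carriers are alike in sequence, their probe sets may share signal. AT2G21640, a mitochondrial protein known for its response to oxidative stress, read 172.5, 233.5 and 156.9 against 367.3, 377.2 and 511.7 (95% interval of the log2 change 0.70 to 1.49, adjusted p = 0.00444). The mitochondrial small heat shock protein AT5G51440 read 102.7, 234.4 and 139.7 in ethanol and 275.5, 325.4 and 347.3 in oligomycin (log2 change 0.99, adjusted p = 0.043). That call was weak: it ended without any one of 5 of the 6 arrays, ethanol replicate 2 being the exception, with an adjusted p of up to 0.16. The member that did not pass the test was AT5G09570, a small mitochondrial protein, at 70.5, 110.0 and 75.3 in ethanol and 99.5, 111.8 and 120.7 in oligomycin (log2 change 0.34, 95% interval −0.04 to 0.72, adjusted p = 0.386).

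Alternative respiration offers electrons ways into the chain that pump no protons, among them NAD(P)H dehydrogenases that bypass complex I and dehydrogenases that feed ubiquinone from amino acid breakdown. Of the 7 measured genes of this list, also chosen with earlier results known, 3 rose and 0 fell, where 1.99% of all genes rose. The median log2 change was 0.30, and the count is not independent evidence of a direction. The rises were NDB2 and NDB4, out of 5 NAD(P)H dehydrogenases, and IVD, a leucine enzyme that also counts in the starvation list below, where its weak call is described. NDB2, which oxidises NADH on the outer face of the inner membrane, read 64.9, 92.9 and 71.0 in ethanol and 139.6, 130.7 and 163.0 in oligomycin (log2 change 0.80, SE 0.14, adjusted p = 0.0054). NDB4, of the same family, rose from 2.8, 1.6 and 4.2 to 8.7, 13.4 and 14.1 (log2 change 0.57, adjusted p = 0.00571). It stayed below 16 on all 6 arrays, in the range where the scale compresses a change, and was no longer called with only the 6 arrays of 1 h in the fit (adjusted p = 0.0539). NDB3 (0.30, adjusted p = 0.371), NDB1 (−0.05) and NDC1 (−0.02) did not pass the test. After scaling to the hybridisation controls NDB2 was no longer called (adjusted p = 0.0501). The alternative oxidases were not analysed here.

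Nuclear genes of the ATP synthase, which oligomycin binds, and of the chain that feeds it gave no calls. As 3.09% of all genes were called, lists of this size would hold few or no calls at that share. Of 8 measured nuclear genes counted with the ATP synthase, 0 passed the test, with a median log2 change of −0.05 and single-gene 95% intervals between −0.44 and 0.44. AT5G47030, its delta subunit, read 1197, 977 and 1248 in ethanol and 1125, 1144 and 1158 in oligomycin (log2 change 0.01). Of 34 measured nuclear genes of complexes I to IV and cytochrome c, 0 passed, with a median of 0.00 and intervals between −0.60 and 0.48. CYTC-1, cytochrome c, read 2196, 1703 and 2197 against 2284, 1849 and 2202. The 17 measured genes of the tricarboxylic acid cycle also gave 0 calls (median −0.10, intervals between −0.50 and 0.44). These intervals leave room for changes smaller than about the bounds given.

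Some rises among detoxification genes were large. Of all genes 1.99% rose and 1.1% fell, the shares to set beside the counts of each family. Of 13 measured glutathione transferases, enzymes that join glutathione to reactive compounds, 2 rose and 0 fell, and the family median was −0.02. GSTU22 read 62.8, 51.7 and 82.1 in ethanol and 534.5, 706.4 and 692.0 in oligomycin (log2 change 3.02, SE 0.16, adjusted p = 3.57e-07). GSTU25 read 71.7, 103.8 and 83.8 against 455.2, 486.1 and 588.2 (log2 change 2.36, SE 0.13, adjusted p = 5.38e-07). Every treated array of both lay several-fold above every control. Their relatives in the same family gave log2 changes between −0.42 for GSTU26 and 0.34 for GSTU21, none past the test. The brightest, GSTU20, read 821.1, 738.5 and 756.2 in ethanol and 780.7, 696.5 and 802.1 in oligomycin, and its groups overlapped.

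UDP-glycosyltransferases, which attach sugars to hormones and defence compounds, were measured with 51 genes, of which 4 rose and 1 fell (median −0.08). The shares over all genes were 1.99% rising and 1.1% falling. All 4 rises lay in the 7 measured genes whose name begins with UGT73, with a group median of 0.58. UGT73B5 went from 25, 37.7 and 27.9 to 157.3, 151.9 and 195.4 (log2 change 2.00, SE 0.13, adjusted p = 1.8e-06), and UGT73B4 from 19.6, 12.6 and 22.2 to 97.8, 97.0 and 136.0 (log2 change 1.88, SE 0.14, adjusted p = 4.68e-06). UGT73B1 rose by less, from 67.9, 85.5 and 79.1 to 146.5, 146.0 and 172.3 (log2 change 0.87, adjusted p = 0.00176). UGT73C7 stayed dim, at 8.6, 7.0 and 9.6 against 19.4, 14.4 and 17.1 (log2 change 0.43, adjusted p = 0.0161), and its call ended without ethanol replicate 1 or oligomycin replicate 1 or 3, with an adjusted p of up to 0.0711. The 9 measured UGT71 genes ranged from −0.31 to 0.22 and the 8 UGT76 genes from −0.30 to 0.12, with 0 calls. Of 24 measured cytochrome P450 genes 1 rose: CYP84A4, at 15.3, 29.3 and 17.5 in ethanol and 82.4, 88.5 and 106.5 in oligomycin (log2 change 1.58, adjusted p = 0.000305).

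Autophagy, which encloses cell material in membranes for breakdown, gave 1 rise among 15 measured genes (median 0.03). ATG8E, a ubiquitin-like protein that coats the forming membrane, read 134.5, 179.2 and 124.8 in ethanol and 601.2, 636.6 and 819.0 in oligomycin (log2 change 2.12, SE 0.18, adjusted p = 1.68e-05). The other measured members of its own family lay near 0: ATG8F read 671.7, 922.0 and 694.7 against 639.5, 614.1 and 738.8 (−0.19), ATG8C was at 0.16, ATG8G at 0.13 and ATG8D at 0.02. None of these passed the test, and their groups were close together or overlapped.

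Of 6 measured folding genes of the endoplasmic reticulum 1 rose and 1 fell (median −0.06). BZIP60, which switches on genes for protein folding, read 155.5, 201.5 and 177.6 in ethanol and 643.9, 586.5 and 697.8 in oligomycin (log2 change 1.77, SE 0.11, adjusted p = 1.13e-06). CRT1b, a calcium-binding chaperone of that compartment, fell from 787.3, 765.6 and 786.5 to 555.9, 578.5 and 516.6 (log2 change −0.49, SE 0.09, adjusted p = 0.00817), a call that ended without oligomycin replicate 3 (adjusted p = 0.05). BZIP28 and BZIP17, which also serve the unfolded protein response, were at −0.03 and −0.10, and ATERDJ3B, a co-chaperone, at −0.32 (adjusted p = 0.139). In the bZIP family as a whole BZIP60 was the 1 called gene of 21, and the family median was −0.09.

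Sugar starvation and SnRK1 genes rose in 5 of 10 measured cases and fell in 0, with a median log2 change of 0.41, where 1.99% of all genes rose. This list too was chosen with earlier results of these data known, so its count is not independent evidence of a direction. AT3G15450, a starvation marker already bright in the dark controls, read 686.0, 868.9 and 716.8 in ethanol and 1382, 1397 and 1515 in oligomycin (log2 change 0.91, SE 0.11, adjusted p = 0.000332). Enzymes of leucine breakdown stood beside it. MCCA, the biotin-bearing subunit of 3-methylcrotonyl-CoA carboxylase, read 98.2, 109.5 and 99.9 against 186.5, 170.9 and 244.5 (log2 change 0.86, adjusted p = 0.00786). IVD, isovaleryl-CoA dehydrogenase, read 96.5, 152.6 and 112.9 against 203.8, 188.2 and 238.9 (log2 change 0.74, adjusted p = 0.0109). MCCB, the partner subunit of MCCA, read 159.2, 154.7 and 168.1 against 214.6, 233.1 and 238.4 (log2 change 0.47, adjusted p = 0.0107).

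The leucine enzymes rested in part on 1 array: without oligomycin replicate 3 the adjusted p of IVD was 0.0635 and that of MCCB 0.0602. After scaling to the hybridisation controls none of the 3 was called. AKINBETA1, a regulatory subunit of SnRK1, read 191.7, 198.3 and 181.5 in ethanol and 239.1, 268.0 and 302.4 in oligomycin (log2 change 0.46, adjusted p = 0.0213). It lost its call without ethanol replicate 1 or 3 or oligomycin replicate 2 or 3, with an adjusted p of up to 0.107. ETFQO, which passes electrons from leucine breakdown to ubiquinone, read 43.5, 51.3 and 48.7 against 43.5, 52.3 and 58 and did not pass (log2 change 0.07, adjusted p = 0.815). D2HGDH, on the same electron route, was at −0.22 (adjusted p = 0.203).

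Calls among hypoxia and glycolysis genes were few and all rises, where 1.99% of all genes rose and 1.1% fell. The median log2 change of the hypoxia list was 0.13. AT4G17260, a lactate dehydrogenase, was the 1 rise among 8 measured hypoxia genes, at 141.0, 124.9 and 192.0 in ethanol and 391.5, 389.9 and 464.7 in oligomycin (log2 change 1.37, SE 0.17, adjusted p = 0.000593). PDC2, a pyruvate decarboxylase of ethanol fermentation, read 218.0, 400.3 and 253.7 against 249.1, 271.5 and 302.3 (log2 change −0.04, 95% interval −0.48 to 0.40). Ethanol replicate 2 was its highest array, and the same array held AT5G10040, a hypoxia-responsive gene, at 481.6 where the other controls read 74.5 and 67.3. The change of AT5G10040, 0.14, therefore has a 95% interval from −1.05 to 1.33. In glycolysis 2 of 11 measured genes rose and 0 fell (median 0.03): AT5G56350, a pyruvate kinase (322.2, 265.0 and 291.6 against 481.2, 408.2 and 422.4, log2 change 0.55, adjusted p = 0.0238), and AT1G76550, a phosphofructokinase that works with pyrophosphate (362.3, 345.5 and 425.2 against 547.3, 592.4 and 520.3, log2 change 0.54, adjusted p = 0.046). The first lost its call without ethanol replicate 2 or 3 or oligomycin replicate 1 or 3, with an adjusted p of up to 0.093. The second kept its call only without ethanol replicate 3, and without each of the other 5 arrays its adjusted p was up to 0.161.

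Touch, wound and elicitor genes rose in 2 of 11 measured cases and fell in 0 (median 0.40), and 6 of the 11 were higher on all oligomycin arrays, as were 6.85% of all probe sets. AT3G10930 read 32.8, 58.8 and 51.3 in ethanol and 200.1, 134.5 and 224.6 in oligomycin (log2 change 1.66, SE 0.24, adjusted p = 0.00155). WRKY6, a transcription factor of stress and senescence, read 28.4, 55.1 and 32.5 against 86.8, 82.6 and 83.6 (log2 change 0.91, adjusted p = 0.0114), and its adjusted p was up to 0.0545 without ethanol replicate 1 or 3. STZ, a zinc finger repressor of stress responses, read 42.0, 137.8 and 154.6 against 178.5, 225.7 and 256.7 and did not pass (log2 change 1.02, adjusted p = 0.124). Its groups did not overlap, yet ethanol replicate 1 lay far below the other controls, as it did for CML38, a calmodulin-like protein (79.2, 251.3 and 294.0 against 217.2, 304.8 and 421.8, log2 change 0.68, adjusted p = 0.509). WRKY22 and WRKY53, of plant defence, were just short of the threshold or near it, at 0.40 (adjusted p = 0.0513) and 0.39 (adjusted p = 0.0817).

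Signals of hormones and calcium were represented by few measured genes. GRX480, a glutaredoxin that binds factors of salicylate signalling, went up from 12.9, 39 and 23.9 to 86.6, 73.4 and 79.9 (log2 change 1.26, SE 0.21, adjusted p = 0.00461), while SAG101, the other measured gene of that list, was at 0.41 (adjusted p = 0.427). IAA30, a repressor of auxin responses, was the 1 rise among 6 auxin genes, at 14.9, 11.9 and 12.4 against 30.2, 23.3 and 26.1 (log2 change 0.55, adjusted p = 0.0281). CML42 was the 1 rise among 9 genes matched as calmodulin-like or calcium-binding, at 96.6, 102.1 and 102.2 against 145.3, 151.5 and 129.9 (log2 change 0.44, adjusted p = 0.0311). Both calls ended without any one of 5 arrays: only without oligomycin replicate 2 did IAA30 keep its call, and only without oligomycin replicate 3 did CML42, with adjusted p values of up to 0.103 and 0.12. Ribosome biogenesis (10 genes), cytokinin (6), histones (7) and sugar transporters (16) gave 0 calls. With 3.09% of all genes called, lists this small would hold few or no calls at that share.

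**Figure D3:**
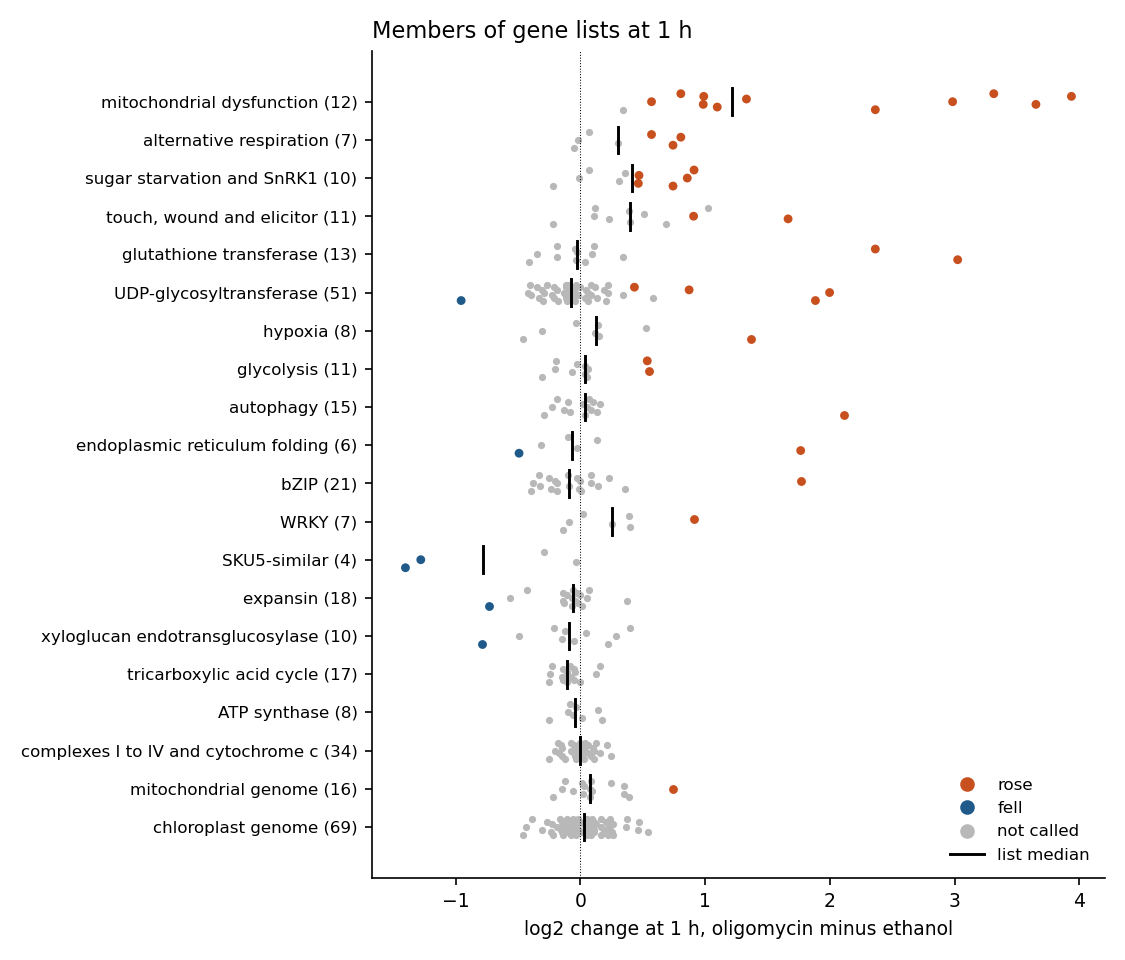
Log2 change at 1 h, oligomycin minus ethanol, of every measured member of 20 gene lists and families (number of members in brackets), coloured where called, with a black bar at the list median. Mitochondrial dysfunction genes spread from 0.34 to 3.94, while the tricarboxylic acid cycle, the ATP synthase and the respiratory complexes stay between −0.26 and 0.25.

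Some genes went from near the floor of the array to a clear reading. Of the 523 rises, 56 had all 3 ethanol arrays below an intensity of 16. Over all probe sets, 28.9%, 27.7% and 30% were at or below 16 on the single ethanol arrays. The share of all probe sets below 16 on all 3 was not computed. The largest with a gene name after AT3G54520 was AT5G57510, at 6.0, 13.3 and 7.1 in ethanol and 84.7, 78.2 and 100.0 in oligomycin (log2 change 2.07, SE 0.14, adjusted p = 2.05e-06). AT2G20720 read 2.6, 2.6 and 1.8 against 35.8, 39.6 and 52.3 (log2 change 1.67, adjusted p = 0.000966). AT1G26420, like the berberine bridge enzyme, read 3.0, 10.4 and 8.9 against 38.1, 40.9 and 39.4 (log2 change 1.26, adjusted p = 6.72e-05), and AT2G31860 was at 1.33. All 4 lay above 16 on every oligomycin array. At the other end, AT4G19880 was among the brightest rises, from 685.7, 862.5 and 738.5 to 1580, 2023 and 2011 (log2 change 1.28, SE 0.13, adjusted p = 7.06e-05), with AT5G65660 at 0.80 (688.5, 865.2 and 915.1 against 1273, 1559 and 1472). SRC2 (0.50) and AT1G17860 (0.48) were bright too, but SRC2 kept its call only without ethanol replicate 3 or oligomycin replicate 1 and AT1G17860 only without ethanol replicate 1, with adjusted p values of up to 0.126 and 0.124 without another array.

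**Figure D4:**
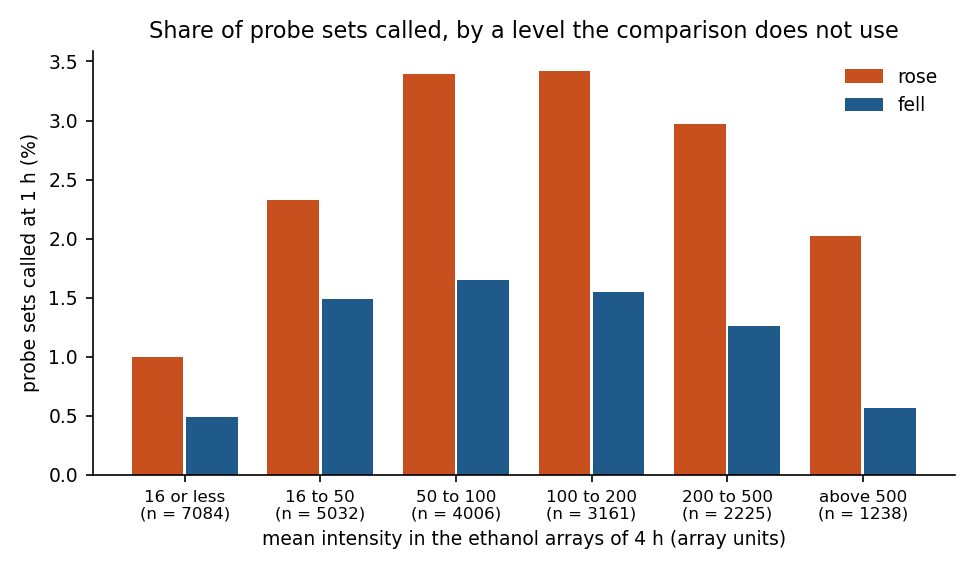
Percentage of probe sets called at 1 h (bars from 0; orange for rises, blue for falls) in 6 classes of mean intensity in the ethanol arrays of 4 h, which the comparison at 1 h does not set against oligomycin. The share of rises is 1.00% at 16 or less, 3.42% between 100 and 200 and 2.02% above 500, and the share of falls goes from 0.494% through 1.65% between 50 and 100 to 0.565%.

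Calls were least frequent among dim and among very bright probe sets, as the plot of shares by level shows. The median SE of a log2 change fell from 0.14 in the dimmest class to 0.11 in the brightest. By chromosome, the share of genes that rose was 2.11%, 2.35%, 1.4%, 2.17% and 1.95% on chromosomes 1 to 5. The share called over all genes was 3.09%. Of 69 chloroplast genes 0 were called (median 0.03), and of 16 mitochondrial genes 1 was called as a rise (median 0.08), which depended on the probe set taken. That gene was nad1, a subunit of complex I, at 24.3, 30.1 and 31.7 in ethanol and 59.4, 59.6 and 56.7 in oligomycin (log2 change 0.74, SE 0.12, adjusted p = 0.00352). This probe set was the brightest of nad1 over all 12 arrays. The brightest in ethanol at 1 h was another, at 36.8, 44.5 and 44.6 against 53.3, 52.3 and 44.9, which did not pass (log2 change 0.19, adjusted p = 0.451). With that one, a choice made after seeing the data, 0 of the 16 genes were called. The other 6 probe sets of nad1 gave −0.08 to 0.56, with none called.

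Some genes were measured by several probe sets. Of 6 such genes with a call, 2 were called by more than 1 probe set. Calls in opposite directions were possible only in these 2, and 0 were seen. These 2 were singled out after their values were seen. GAT1_2.1, a class I glutamine amidotransferase-like gene, read 38.1, 89.1 and 69.0 against 364.2, 271.0 and 366.7 on one probe set (log2 change 2.14, adjusted p = 6.45e-05) and 15, 20.6 and 13.1 against 57.2, 38.3 and 45.9 on the other (log2 change 0.97, adjusted p = 0.00293). AT1G18390 gave 0.72 and 0.69. In both genes each treated array exceeded each control. The remaining genes, nad1, AT1G22330, AT3G50590 and AT4G01290, had only 1 called probe set each. For the last 3 the called and the other probe set gave −0.59 and −0.21, −0.43 and −0.01, and −0.38 and −0.14.

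Both genes were called in the same direction in 13 of 5813 pairs of adjacent measured genes, 11 pairs rising and 2 falling. In 0 pairs were they called in opposite directions. Of all genes 1.99% rose and 1.1% fell, and the number of pairs that these shares alone would give was not computed. Besides UGT73B5 with UGT73B4, the rising pairs included the acetyltransferase-like AT2G32020 and AT2G32030, the latter at 11.1, 18.5 and 16.3 in ethanol and 51.7, 59.2 and 60.3 in oligomycin (log2 change 1.23, adjusted p = 8.42e-05). Another was AT5G52750 and AT5G52760, which carry heavy-metal domains. The first read 62.2, 44.4 and 81.2 against 223.1, 221.6 and 261.5 (log2 change 1.70, adjusted p = 0.000273). The second read 7.1, 16.3 and 26.2 against 64.5, 50.6 and 65.8 (log2 change 1.27, adjusted p = 0.0276), a call kept only without ethanol replicate 3 (adjusted p up to 0.11 without another array).

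Further pairs of neighbours that rose were AT2G44370 (1.45) with AT2G44380 (0.85), AT5G07860 (1.42) with AT5G07870 (1.08), and AT1G67800 (0.80) with SUFE2 (1.32), a protein of the family that aids iron-sulfur cluster assembly. In 3 more pairs 1 gene had a firm call and its neighbour did not. AT1G76600 stood beside AT1G76590 (0.62), which kept its call only without ethanol replicate 2 (adjusted p up to 0.112 without another array). AT3G25610 stood beside AT3G25600 (0.79), which lost its call without ethanol replicate 1 or oligomycin replicate 2 or 3 (adjusted p up to 0.0843). AT4G16680 (1.23) stood beside AT4G16670 (0.86), which kept its call only without ethanol replicate 3 or oligomycin replicate 1 (adjusted p up to 0.0726 without another array). In the pair of AT1G33590 (0.54) and AT1G33600 (0.38), the first lost its call without oligomycin replicate 2 (adjusted p = 0.0601) and the second kept it only without oligomycin replicate 1 (adjusted p up to 0.191). In the pair of AT5G19240 (0.55) and AT5G19250 (0.39), the first kept its call only without oligomycin replicate 1 (adjusted p up to 0.115), and the second lost it without any one of the 6 arrays (adjusted p up to 0.185).

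Of the falling pairs, AT1G66440 (−0.88) stood beside AT1G66450 (−0.63), which lost its call without oligomycin replicate 3 (adjusted p = 0.0505). AT5G54830 (−0.52) stood beside SGP1 (−0.39), and both lost their calls without any one of the 6 arrays, with adjusted p values of up to 0.157 and 0.138. Where neighbours are near-identical copies their probe sets can share signal, so the members of such a pair are not independent readings.

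The biggest named fall was sks15, of the SKU5-similar family of wall proteins related to multicopper oxidases, from 248.4, 187.6 and 200.1 in ethanol to 69.3, 63.6 and 76.7 in oligomycin (log2 change −1.40, SE 0.15, adjusted p = 0.000168). Its relative sks16 went from 133.5, 90.6 and 100.9 to 37.5, 29.3 and 37.7 (log2 change −1.28, SE 0.12, adjusted p = 4.58e-05). For both, the highest treated array was well below the lowest control. SKU5 itself, a brighter gene that guides root growth, read 887.4, 584.3 and 643.1 against 523.1, 673.3 and 511.0 and did not pass (log2 change −0.29, adjusted p = 0.386), and sks18 was close to the floor. The family thus had 2 falls among 4 measured genes (median −0.78).

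Next in size among the named falls came AT2G43880, like polygalacturonases that cut pectin, which went from 60.5, 54.9 and 46.0 to 18.7, 14.8 and 16.3 (log2 change −1.09, SE 0.10, adjusted p = 3.44e-05). AT1G57590, which belongs with pectin acetylesterases, went from 92.2, 85.3 and 65.6 to 33.5, 32.7 and 29.8 (log2 change −1.01, SE 0.13, adjusted p = 0.000788). AT4G25250, like inhibitors of pectin methylesterase, read 122.5, 82.8 and 60.5 against 23.1, 34.8 and 44.6 (log2 change −1.04, SE 0.24, adjusted p = 0.0366). Its arrays were the most scattered of these genes, and it kept its call only without ethanol replicate 3, with an adjusted p of up to 0.128 without another array. In the opposite direction ATPMEPCRB, a pectin methylesterase, rose from 119.8, 118.3 and 137.3 to 258.3, 281.3 and 275.6 (log2 change 1.03, SE 0.09, adjusted p = 3.44e-05), the 1 call among the 5 genes matched by name to pectin methylesterases and their inhibitors, a match that does not take in AT4G25250, known here by its code.

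Wall-loosening families gave 1 fall each, where 1.1% of all genes fell and 3.09% were called. EXPB1, a beta-expansin, fell from 44.0, 38.0 and 38.7 to 20.9, 15.4 and 17.2 (log2 change −0.73, SE 0.14, adjusted p = 0.00892), the 1 call among 18 expansins (median −0.06). XTH21, an enzyme that cuts and rejoins xyloglucan, fell from 38.9, 30.2 and 21.6 to 12.5, 10.8 and 8.2 (log2 change −0.79, SE 0.13, adjusted p = 0.00512), the 1 call among 10 XTH genes (median −0.09). In both genes the groups were separate. XTH33 (−0.49, adjusted p = 0.18) and EXPA9 (−0.57, adjusted p = 0.104) were lower without passing the test, and XTH20 (0.40, adjusted p = 0.181) was higher. The 8 measured cellulose synthase genes gave 0 calls.

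UGT72E2, which puts glucose on monolignols, the building blocks of lignin, fell from 223.0, 323.7 and 311.2 to 132.1, 147.7 and 134.0 (log2 change −0.96, SE 0.12, adjusted p = 0.000568). Its relatives UGT72E1 (−0.05) and UGT72E3 (−0.33, adjusted p = 0.536) did not pass, nor did HCT, an earlier enzyme of the pathway (−0.30, adjusted p = 0.25), or CCR2 (0.64, adjusted p = 0.0775). UGT72E2 was thus the 1 call among 7 monolignol and phenylpropanoid genes (median −0.19). Every oligomycin array of UGT72E2 was lower than every control, and the treated arrays were closer together.

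The remaining large falls were of genes with little said about them here. AT3G19430 went from 233.2, 173.8 and 233.4 to 99.7, 112.0 and 105.6 (log2 change −0.90, SE 0.13, adjusted p = 0.00131). AT3G13650, like dirigent proteins that steer the coupling of phenolics, went from 266.5, 175.3 and 264.6 to 115.3, 133.6 and 117.6 (log2 change −0.84, SE 0.14, adjusted p = 0.0055). For both genes ethanol replicate 2 was the lowest control and still lay above all treated arrays. With only the 6 arrays of 1 h in the fit AT3G13650 was no longer called (adjusted p = 0.0529). AT3G21680 (−0.98), AT1G66440 (−0.88), AT2G43600 (−0.87) and AT3G61930 (−0.84) kept their calls without any single array. AT1G14960 (−0.93) and AT2G22930 (−0.94) lost theirs without oligomycin replicate 2, with adjusted p values of 0.053 and 0.0524, and AT2G16230 (−0.88) kept its own only without ethanol replicate 2 or oligomycin replicate 3 (adjusted p up to 0.0861 without another array). The 5 brightest falls also took in AT3G20370 (−0.53), AT5G11560 (−0.39) and AT1G61730 (−0.37). AT3G20370 lost its call without ethanol replicate 1 or 3 or oligomycin replicate 3 (adjusted p up to 0.11). AT5G11560 and AT1G61730 kept theirs only without ethanol replicate 2 (adjusted p up to 0.157 and 0.185 without another array). Of the 260 falls, 52 had all 3 oligomycin arrays below an intensity of 16. Over all probe sets, 29.2%, 30.9% and 31.6% were at or below 16 on the single oligomycin arrays.

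**Figure D5:**
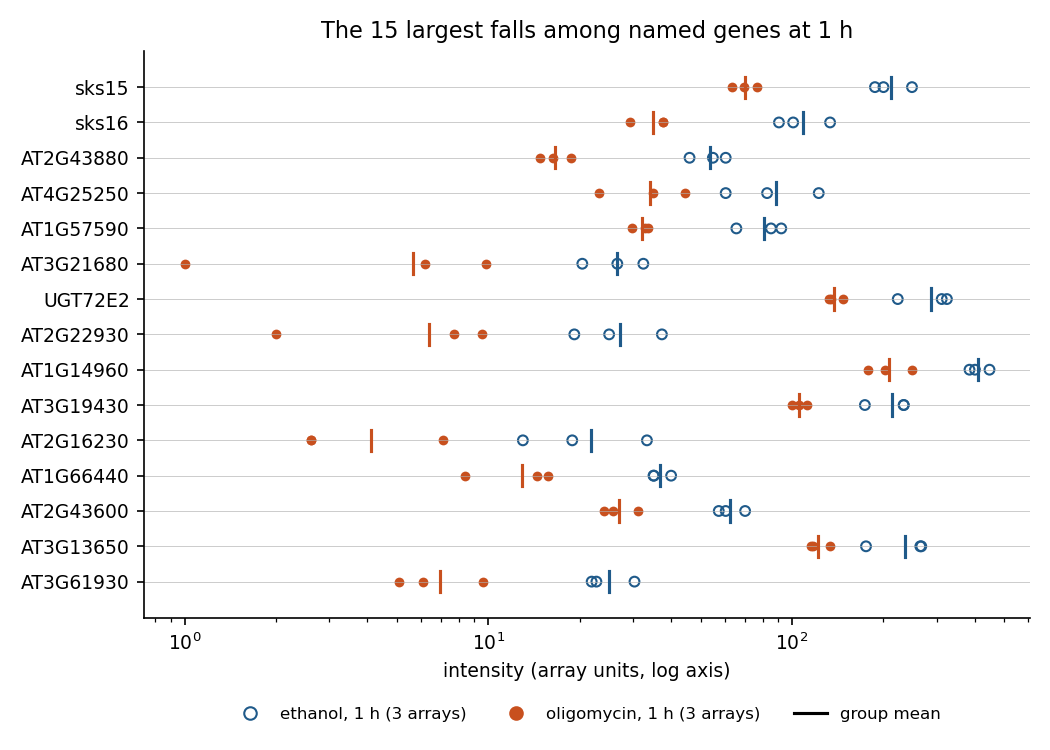
Intensity on each array (log axis, array units) for the 15 largest falls among named genes, with open blue circles for the 3 ethanol arrays, filled orange circles for the 3 oligomycin arrays and short bars for the group means. All oligomycin arrays lie below all ethanol arrays in each row, with a narrow gap for AT4G25250, whose highest oligomycin array (44.6) is near its lowest ethanol array (60.5).

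The 13513 probe sets with 1 gene name gave 268 rises and 147 falls. The 9233 probe sets without a single gene name here gave 255 rises and 113 falls. They include the extremes of the comparison. The probe set 263231_at read 17.8, 30.9 and 22.6 in ethanol and 631.6, 991.5 and 1092 in oligomycin (log2 change 4.51, SE 0.23, adjusted p = 3.57e-07), and 253046_at went from 20.9, 36.9 and 37.1 to 550.5, 635.7 and 766.1 (log2 change 3.81, SE 0.21, adjusted p = 4.12e-07). The deepest falls were 254820_s_at, from 672.1, 543.2 and 586.5 to 171.8, 186.4 and 152.0 (log2 change −1.73, SE 0.13, adjusted p = 6.7e-06), and 262427_s_at, from 600.7, 495.4 and 466.5 to 180.0, 160.3 and 165.3 (log2 change −1.53, SE 0.14, adjusted p = 3.27e-05). These were brighter in ethanol than any of the 15 largest named falls, and as probe sets ending in _s_at they can detect more than 1 transcript.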

How the data were processed

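The authors deposited 1 table of linear array intensity per probe set. Per the submitters' processing notes RMA was used, and its version is not given in the sources used here, but the intensity values were not log2 and all arrays shared a trimmed mean of 99.2 to 99.3, so the method that made them is not settled. Log2(intensity + 16) was computed here, and 64 control probe sets were left out. Limma 3.58.1 (R 4.3.3) fitted 1 mean for each of the 4 groups to all 12 arrays, so the arrays of 4 h add to the estimate of the spread (8 residual and 4.14 prior degrees of freedom). The fit was tested on simulated data. Genes were named by the probe table and a RefSeq gene table (TAIR10.1, names and neighbours only): 13513 probe sets had 1 gene, 503 several and 8730 none. The probe set brightest over all 12 arrays stood for its gene. The members and lists were chosen with earlier results of these data known. Of 89 lists and families 41 had at least 3 measured genes, and 28 had none and are not analysed here.

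Named genes were the 20 largest rises, 15 largest falls, 5 smallest adjusted p, 5 brightest rises and 5 brightest falls in ethanol, up to 5 rises from below 16, called neighbours, and for each list up to 5 rises and 4 falls or, without a call, its 2 brightest members. Not every brightest member of a list without a call is described. Other list members are named for contrast, from the same tables. Alternatives were a replicate block, the 6 arrays alone, a trended robust prior, array weights, 3 scalings, pseudocounts of 1 and 32, leaving out the dimmest 40%, and leaving out each array. Taking the probe set brightest in ethanol at 1 h for each gene was added after seeing the data.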

Additional observations from a re-analysis of the deposited data

How the results depend on the processing

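The main counts at 1 h were 783 calls, 523 rises and 260 falls, with 3560 probe sets at an unadjusted p under 0.05. With only the 6 arrays of 1 h in the fit there were 441 calls (344 rises and 97 falls), and with a pseudocount of 1 there were 513 calls with 129 falls. Scaling to the hybridisation controls gave 343 rises, array weights 414 falls and centring on the median 171 falls. Over the fits without 1 array, calls ran from 441 to 833, rises from 343 to 558 and falls from 98 to 275. The lowest counts came without oligomycin replicate 3 and the highest without ethanol replicate 2. Deviations of same-numbered arrays from their group means correlated at 0.04, −0.06 and 0.02. The labels do not say whether arrays of the same number were handled together, and these values cannot settle it. With the replicate block there were 750 calls (515 rises and 235 falls), of which 484 rises and 205 falls were shared with the main result. Of 94 called named genes, 60 were called under every alternative, and under none did the called change of a named gene reverse its sign. Taking the probe set brightest in ethanol at 1 h, an alternative chosen after seeing the data, changed the probe set of 1 gene, nad1, and gave 265 genes up in place of 266 and 0 mitochondrial genes up in place of 1. Centring on the median moved the median of all probe sets from −0.04 to 0.00 and scaling to the hybridisation controls to −0.10. Signal near the array floor limits what can be seen of dim genes, and 3 arrays a group limit small changes. The causes of these shifts were not tested.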
